A study of Homo sapiens with 6 samples.

Results

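The genes described here are the 39 nuclear-encoded subunits of respiratory complexes II to V, cytochrome c included, out of 17104 genes measured by RNA-seq in a human cell line. They were taken by symbol, 4 from complex II, 9 from complex III, cytochrome c itself, 10 from complex IV and 15 from complex V, and all 39 have a value. The cells are HBMEC, labelled as endothelial cells of the brain. The study set 3 control libraries, from cells in normal culture, against 3 libraries from cells after OGD/R. OGD/R, written out in the field as oxygen-glucose deprivation and reperfusion, is a culture model of stroke: cells lose oxygen and glucose for a time and then regain both. The titles mark the groups as CON and OGD, the return step is named in the study's design text, and the sources used here do not give its timing. No genotype or drug treatment is named for either group, and both are the same line.

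The libraries held 31048662 to 34484647 counts each. Of 10 endothelial marker genes, 2 have a value, CDH5 (VE-cadherin) and ESAM, and 8 have no value among the 17104 genes, PECAM1, VWF and KDR among them. The summed level of the 2 with a value was 144 to 153 CPM (counts relative to library size after TMM scaling) in control and 148 to 152 CPM after OGD/R. CDH5 was higher after OGD/R (10.3 CPM in control, 18.1 CPM after OGD/R). ESAM, which makes up most of the sum, was at 138 CPM in control and 132 CPM after OGD/R and was not called. Of 10 epithelial markers, 7 have a value, with a summed level of 2445 to 2670 CPM in control and 2998 to 3059 CPM after OGD/R. KRT8, KRT18 and KRT7, keratins of simple epithelia, passed the test with higher levels after OGD/R, and these 3 carry the higher sum. The other 4 were not called: EPCAM was at 52.3 CPM in control and 57.7 CPM after OGD/R, CLDN4 at 21.2 and 17.8 CPM, ESRP1 at 42.2 and 37.4 CPM, and CDH1, a defining epithelial cadherin, near 1 CPM in both groups. With 8 of 10 endothelial markers without a value and high keratins, these markers do not bear out the endothelial label. HBMEC is used here as a label only, and the identity of the cells was not tested. The part of the epithelial markers in the subunit results was not tested either. Markers of mural cells, fibroblasts, astrocytes and leukocytes had summed levels of at most 17.8 CPM in any library, and none of them was called.

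The respiratory chain passes electrons from metabolites to oxygen across the inner mitochondrial membrane. Complex II (succinate dehydrogenase) hands electrons from succinate to ubiquinone, complex III hands them on to cytochrome c, complex IV (cytochrome c oxidase) passes them to oxygen, and complex V (ATP synthase) uses the proton gradient so built to make ATP. Complex II is made from nuclear genes alone, whereas complexes III, IV and V each also hold subunits that the mitochondrial genome encodes.

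Most of these subunit transcripts were moderately higher after OGD/R. In edgeR's quasi-likelihood test, with p-values adjusted over all 17104 genes and a threshold of 0.05, 30 of the 39 rose, 0 fell and 9 did not pass. Among all genes 10.2% were called higher, 9.48% lower and 19.7% in either direction. The median log2 fold change of the 39 was 0.25, a rise of 19.2%, and its quartiles were 0.15 and 0.31, while the median over all genes was −0.00. The individual changes ran from −0.17 to 0.41, so that none reached 0.5. The summed level of the 39 was 4278, 4714 and 4364 CPM in control replicates 1, 2 and 3 and 5056, 5294 and 5268 CPM in OGD/R replicates 1, 2 and 3. All 3 OGD/R libraries lay above all 3 control libraries, a difference in means of 16.9% (4452 ± 231 against 5206 ± 131 CPM, SD, n = 3 each). In bulk RNA, more cells of a kind and more transcript per cell cannot be told apart.

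Gene by gene, the 3 OGD/R libraries were all above the 3 control libraries in 29 of the 39 subunits and all below in 0. Among all genes 16.4% were separated upward in this way and 16.6% downward. UQCRC1 and COX5A passed the test although their groups overlapped. COX5A (0.15, edgeR adjusted p = 0.0368) did not pass in 10 of the 18 other settings, among them total-count scaling, DESeq2, limma-voom, both length corrections (0.0022 and −0.022) and leaving out any 1 of control replicates 1 and 3 and OGD/R replicates 1 and 2 (adjusted p from 0.138 to 0.222). ATP5MG had separate groups (13.5 to 15.5 CPM against 16.1 to 19.0 CPM) and did not pass (0.26, edgeR adjusted p = 0.0622), except without control replicate 2 (adjusted p = 0.0476). Control replicate 2 had the highest control value in 33 of the 39 genes. Set against the control mean of each gene, the median subunit stood at −0.06, 0.08 and −0.05 (log2) in the control libraries and at 0.19, 0.26 and 0.29 in the OGD/R libraries.

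**Figure D1:**
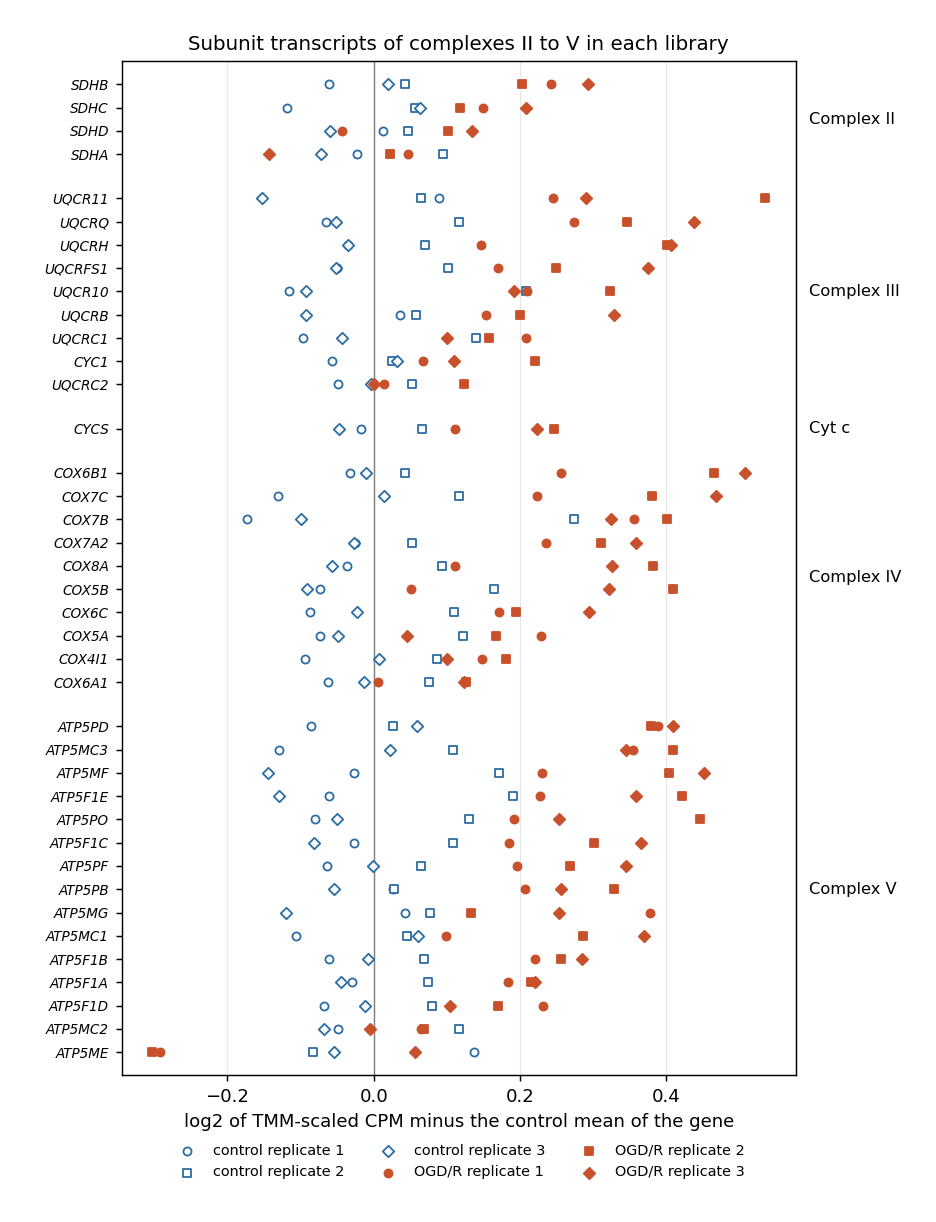
Level of each of the 39 subunit transcripts in the 6 libraries, as log2 of TMM-scaled CPM minus the control mean of that gene, ordered by complex. Open symbols are control and filled symbols OGD/R. In 29 genes all OGD/R symbols lie to the right of all control symbols.

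These transcripts are short, and in this series short transcripts were in general higher after OGD/R. Over 10859 expressed protein-coding genes, the fold change had a Spearman correlation with transcript length of −0.36, given as a description across genes, which are not independent replicates. The median of a gene's basic coding transcripts in GENCODE 29 was 720 nucleotides long at the middle subunit, against 2248 nucleotides over all genes with a length. Of the 38 subunits with a mean of at least 4 CPM, 27 fell among the shortest genes by this length when it is cut into 10 groups (up to 1040.5 nucleotides, 1144 genes). In that length group 33.4% of all genes were called higher, with a median log2 fold change of 0.13, whereas 21 of the 27 subunits (77.8%) were called higher, with a median of 0.26. Another 5 subunits fell in a group of middling length (1857 to 2192 nucleotides), where 15.9% of genes were called higher with a median of 0.02, and 4 of these 5 rose, with a median of 0.21. Across the 38 subunits, 33 had a fold change above the median of their own length group, by 0.14 at the median, and 5 lay at or below it, namely SDHA, SDHD, UQCRC2, COX6A1 and ATP5MC2. Among the 39 subunits themselves the correlation of fold change with this length was −0.24. The length trend also differed between the control libraries. Per library across genes, the correlation with this length was 0.41 for control replicate 1, 0.07 for replicate 2 and 0.29 for replicate 3. After OGD/R it lay between −0.33 and −0.25. The control with the weakest trend, replicate 2, was also the highest control in 33 subunits. Whether subunit levels followed the trend of each library was not tested.

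**Figure D2:**
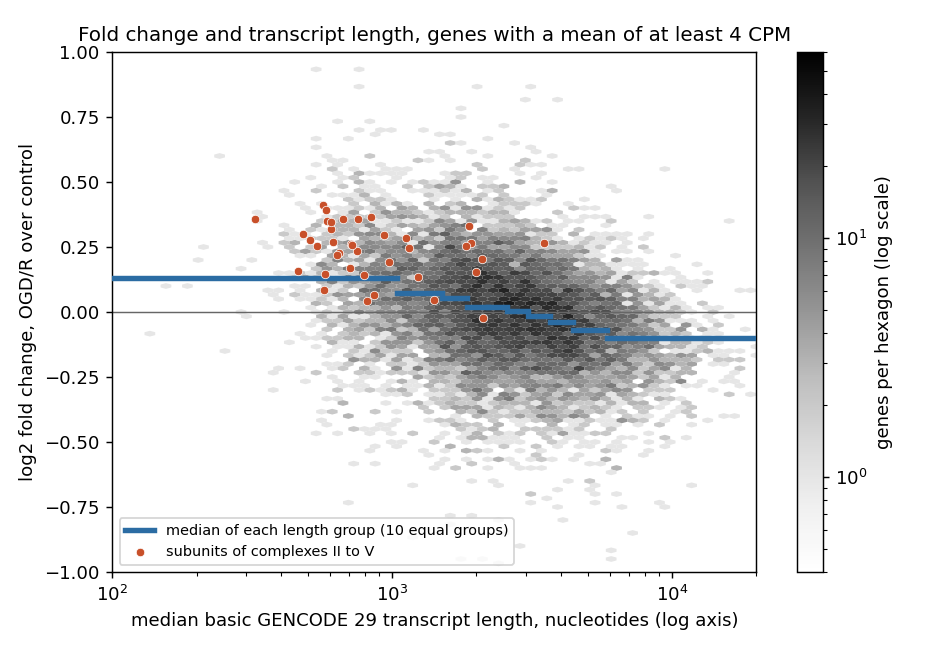
Log2 fold change against the median basic transcript length (log axis) for expressed genes, shaded by number of genes, with the median of each length group as a bar and 38 subunits as points. ATP5ME, under 4 CPM, is left out, and 33 of the 38 points lie above the bar of their group.

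A second fit took a smooth trend on transcript length and GC content out of each library before the test. With the length of the longest transcript, 18 of the 39 subunits rose, 0 fell and the median log2 fold change was 0.14, while 10.3% of all genes were called higher and 8.92% lower. With the median basic length, an alternative added after the data were seen, 15 rose, 0 fell and the median was 0.12, while 10.2% of all genes were called higher and 8.85% lower. The fold change was positive in 33 subunits in the first corrected fit and in 31 in the other. In all 3 fits the same 12 subunits were called higher, of which 4 belong to complex III, 2 to complex IV and 6 to complex V. The corrected subunit medians by library were −0.02, 0.05 and −0.03 in control and 0.11, 0.17 and 0.17 after OGD/R, so the groups stayed separate on this measure with a narrower gap.

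**Figure D3:**
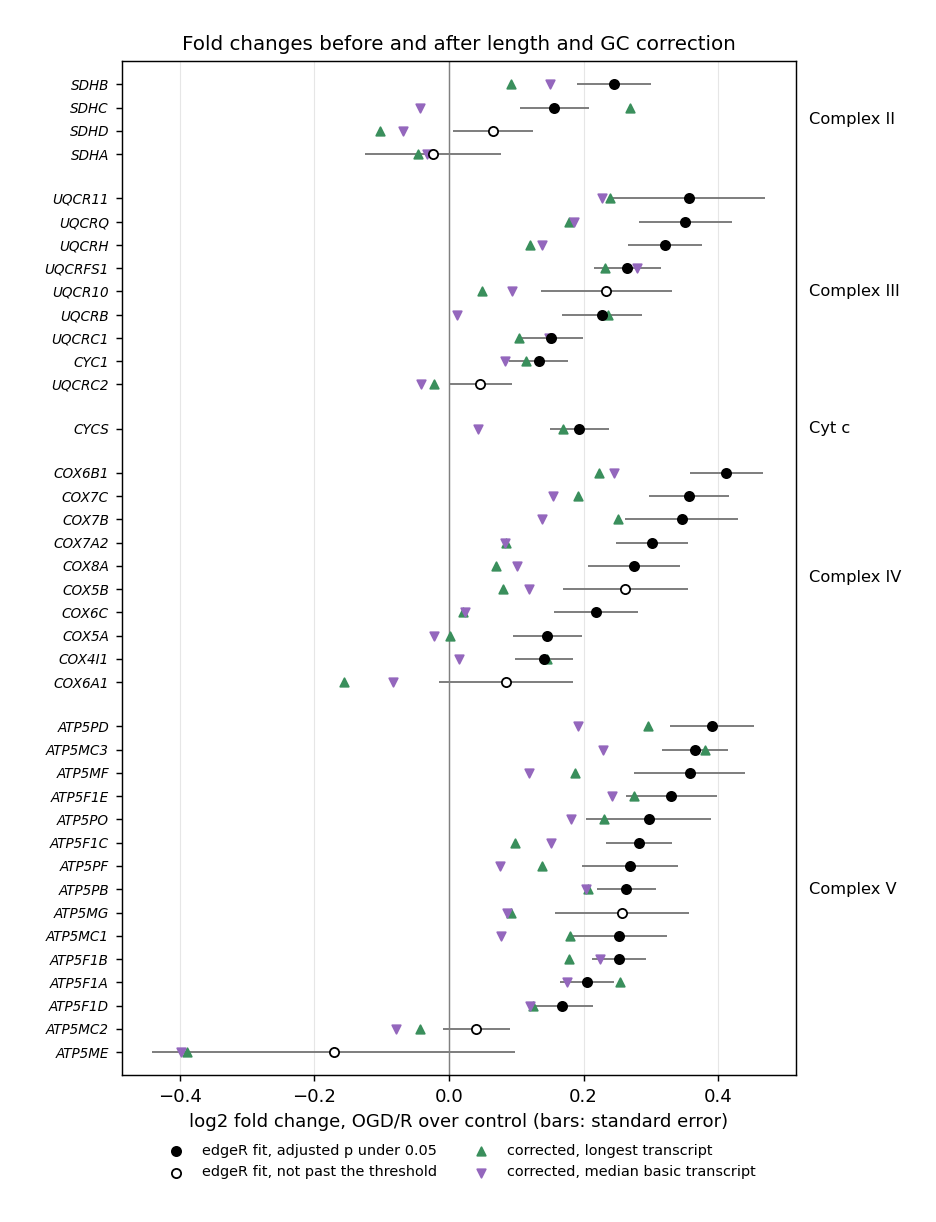
Log2 fold change of each subunit after OGD/R, with its standard error as a bar, filled where edgeR's adjusted p was under 0.05, beside both length and GC corrected values (triangles). Of the 39 subunits 30 are filled, and most triangles lie closer to 0 than the uncorrected points.

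By complex, before any length correction, the difference in summed subunit level as a percentage was smallest in complex II and largest in complexes IV and V. No test was made between complexes, and the sums are given next. The summed level was 231 ± 9.25 CPM in control and 256 ± 6.78 CPM after OGD/R in complex II (SD, n = 3 each), a difference of 10.8%. For complex III it was 864 ± 45.4 against 983 ± 29.2 CPM, a difference of 13.7%. For complex IV it was 821 ± 56.3 against 973 ± 34.7 CPM, a difference of 18.5%. For complex V it was 2356 ± 115 against 2788 ± 54.6 CPM, a difference of 18.4%. In each of the 4 complexes every OGD/R library lay above every control library. Abundant genes weigh most in such sums, and within complex V ATP5F1B and ATP5F1A stood at 887 and 524 CPM in control. The median log2 fold changes before correction, which weigh genes equally, were 0.11, 0.23, 0.27 and 0.26 in complexes II, III, IV and V. Complex IV has the shortest transcripts, with median basic lengths of 1007, 753, 590 and 811.5 nucleotides at the middle of complexes II, III, IV and V. In that order, the median log2 fold changes corrected by longest transcript were 0.02, 0.12, 0.08 and 0.18. With the median basic length they were −0.04, 0.14, 0.09 and 0.15. Complex IV thus lay below complexes III and V in both corrected fits.

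**Figure D4:**
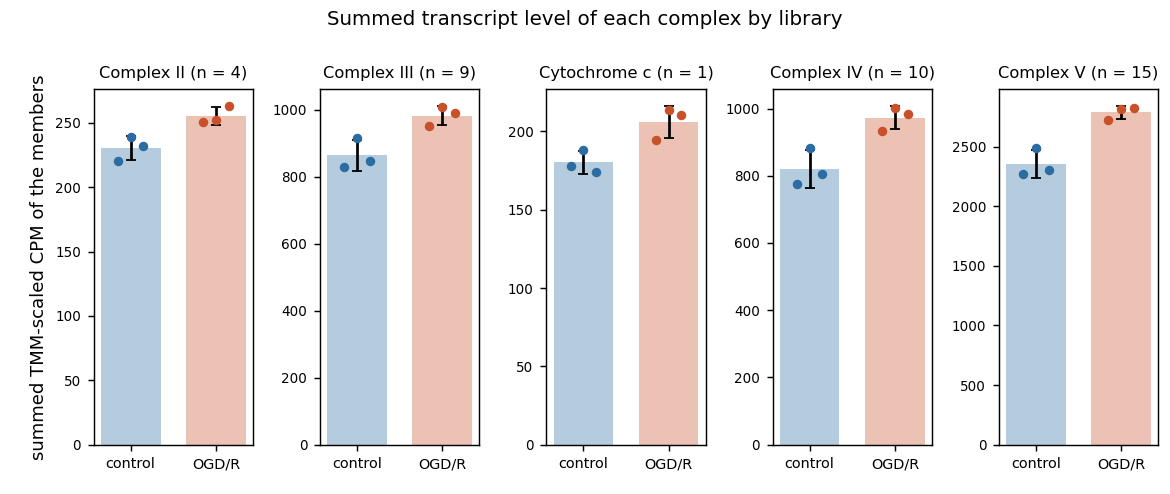
Summed TMM-scaled CPM of the subunits of each complex in the 6 libraries, without length correction, with the mean and SD of each group (n = 3). The OGD/R points lie above the control points in every panel, with differences in means from 10.8% in complex II to 18.5% in complex IV.

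Promoter sequences of these genes were looked at for 2 elements known from nuclear genes of the respiratory chain. NRF1 binds a palindromic GC-rich element and GABP, an ETS factor, binds an element around GGAA, and both are textbook activators of respiratory genes. The RefSeq promoter table (GRCh38.p14) held 31 of the 39 genes, and the first start listed for each gene was used. The 27305 promoters set beside them were not matched to the subunits in expression or GC content. In the 250 bases before the start, searched on both strands, the NRF1 letters (GCGCA, then any base, then GCGC) were found in 8 of the 31 (25.8%) and in 5.53% of 27305 promoters of the same length. The ETS letters CCGGAAGT were found in 7 of the 31 (22.6%) and in 3.64% of all promoters, and at least 1 of both in 13 (41.9%) against 8.74%. TATAAA, the TATA element, was found in 3 of the 31 (9.68%) and in 11.1% of all promoters. The matches in the printed sequences do not overlap one another, and a match is a description of letters, not of binding.

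The 4 sequences printed here show both elements, each alone and the pair together, in genes that rose and in 1 that did not pass the test. They are the 250 bases before the start on the gene's own strand, with matches in capitals. UQCRH (chr1:46303448-46303697, plus strand) has an ETS match that starts 47 bases before the start. ATP5F1C (chr10:7787927-7788176, plus strand) has an NRF1 match 22 bases before it. UQCR11 (chr19:1605463-1605712, minus strand) has NRF1 matches at 29 and 10 bases and an ETS match at 117 bases. SDHD (chr11:112086623-112086872, plus strand) has an NRF1 match at 110 bases and an ETS match at 78 bases.
UQCRH: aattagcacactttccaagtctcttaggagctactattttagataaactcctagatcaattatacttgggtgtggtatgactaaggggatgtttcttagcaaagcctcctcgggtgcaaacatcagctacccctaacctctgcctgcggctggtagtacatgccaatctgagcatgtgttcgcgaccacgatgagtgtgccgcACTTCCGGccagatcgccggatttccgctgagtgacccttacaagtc
ATP5F1C: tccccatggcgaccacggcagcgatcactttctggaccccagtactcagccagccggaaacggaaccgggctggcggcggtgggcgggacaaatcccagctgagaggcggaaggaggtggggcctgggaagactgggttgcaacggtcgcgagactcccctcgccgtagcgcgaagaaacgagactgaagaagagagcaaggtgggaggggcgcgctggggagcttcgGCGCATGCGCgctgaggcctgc
UQCR11: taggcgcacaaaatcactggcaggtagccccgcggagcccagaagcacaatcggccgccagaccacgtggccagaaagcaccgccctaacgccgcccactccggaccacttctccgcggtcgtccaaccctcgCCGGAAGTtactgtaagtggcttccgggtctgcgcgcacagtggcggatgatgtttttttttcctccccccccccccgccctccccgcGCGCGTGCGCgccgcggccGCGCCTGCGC
SDHD: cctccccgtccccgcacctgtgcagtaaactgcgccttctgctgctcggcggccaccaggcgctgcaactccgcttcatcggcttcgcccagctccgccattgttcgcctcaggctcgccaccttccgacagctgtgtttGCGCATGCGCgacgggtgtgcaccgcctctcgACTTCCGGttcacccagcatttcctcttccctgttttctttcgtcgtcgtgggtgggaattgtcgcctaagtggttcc

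Genes that rose stood both with and without a match to either element. Of the 8 genes with an NRF1 match, 5 rose, with a median log2 fold change of 0.21 over the 8, and of the 23 without one, 17 rose, with a median of 0.26. Of the 7 genes with an ETS match, 5 rose, with a median of 0.32, and of the 24 without one, 17 rose, with a median of 0.25. No test was made of these splits. SDHD and UQCR11 carry both elements, and the first did not pass the test while the other rose. More than 1 NRF1 match was found in SDHA (4 matches), ATP5ME (2) and UQCR11 (2). Of these, SDHA and ATP5ME did not pass (−0.02 and −0.17).

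In complex II, 2 of the 4 subunits rose and the other 2 did not pass. After the corrections by longest and median basic length, 1 of the 4 rose in each fit. Among all genes 10.2% were called higher before correction, and 10.3% and 10.2% after these corrections. SDHB (ENSG00000117118), the iron-sulfur subunit, was at 60.2, 64.7 and 63.6 CPM in control replicates 1, 2 and 3 and at 74.3, 72.3 and 76.9 CPM in OGD/R replicates 1, 2 and 3. The groups did not overlap, and the rise was 0.25 ± 0.06 on the log2 scale (SE, edgeR adjusted p = 0.000732). It did not pass after correction by the longest transcript (0.09, adjusted p = 0.208) and passed after correction by the median basic length (0.15, adjusted p = 0.0253).

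SDHC (ENSG00000143252), a membrane anchor that binds ubiquinone, was at 85.7, 96.7 and 97.2 CPM in control and at 103, 101 and 107 CPM after OGD/R. The groups lay close together without overlap, and the rise was 0.16 ± 0.05 (adjusted p = 0.0236). The result of SDHC depends on the length used for correction, since its longest transcript has 13566 nucleotides and its median basic transcript 460. The corrected value was 0.27 (adjusted p = 4.84e-05) with the first and −0.04 (adjusted p = 0.574) with the other. SDHC also did not pass with total-count scaling (0.13, adjusted p = 0.0751), without control replicate 1 (0.10, adjusted p = 0.184) or without OGD/R replicate 3 (0.13, adjusted p = 0.129).

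SDHA (ENSG00000073578), the catalytic flavoprotein that oxidises succinate, was at 15.1, 16.3 and 14.6 CPM in control and at 15.8, 15.5 and 13.9 CPM after OGD/R. The groups overlapped fully, and the log2 fold change was −0.02 ± 0.10 (adjusted p = 0.914). Per kilobase of median basic transcript its control level was 7.27 CPM, against 54.5 CPM for SDHB, its partner in the soluble part of the enzyme. The pseudogene SDHAP4 was listed at 15.9 CPM in control and 15.6 CPM after OGD/R, a level close to that of SDHA itself, and the sources used here do not say how reads shared by such copies were counted.

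SDHD (ENSG00000204370), the other membrane anchor, was at 59.8, 61.3 and 56.9 CPM in control and at 57.6, 63.6 and 65.1 CPM after OGD/R. OGD/R replicate 1 lay among the controls and the other two above them, and the log2 fold change was 0.07 ± 0.06 (adjusted p = 0.502). Length and GC correction gave −0.10 and −0.07 with the longest and the median basic length, and neither passed.

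In complex III, 7 of 9 subunits rose, with a median log2 fold change of 0.23 over the 9. After the corrections by longest and median basic length 6 and 4 rose. The share of all genes called higher was 10.2% before correction, and 10.3% and 10.2% after it. UQCRH (ENSG00000173660), the acidic hinge protein that helps cytochrome c dock, was at 88.5, 95.3 and 88.5 CPM in control and at 100.4, 119.7 and 120.2 CPM after OGD/R. Both groups were separate, with OGD/R replicate 1 the lowest of its group, and the rise was 0.32 ± 0.06 (adjusted p = 2.22e-05). Its corrected values of 0.12 and 0.14 both passed (adjusted p = 0.0457 and 0.0226).

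UQCRFS1 (ENSG00000169021), the Rieske iron-sulfur protein that takes electrons from ubiquinol, was at 111, 123 and 111 CPM in control and at 129, 136.5 and 149 CPM after OGD/R. The groups did not overlap, and the rise was 0.27 ± 0.05 (adjusted p = 8.01e-05). With a median basic length of 3475 nucleotides UQCRFS1 is the longest of the 39, and correction left its value almost as it was, at 0.23 and 0.28 (adjusted p = 0.000151 and 1.83e-05). In its own length group 10.7% of all genes were called higher.

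UQCRQ (ENSG00000164405), a small subunit next to cytochrome b, was at 34.3, 38.8 and 34.6 CPM in control and at 43.3, 45.5 and 48.5 CPM after OGD/R. All OGD/R values lay above the controls, and the rise was 0.35 ± 0.07 (adjusted p = 0.000122), with corrected values of 0.18 and 0.19 that both passed. UQCRC2 (ENSG00000140740), a core protein of the matrix arm, was at 124, 133 and 128 CPM in control and at 129.5, 139.6 and 128 CPM after OGD/R. Its groups overlapped and it had the largest p of the complex (0.05 ± 0.05, adjusted p = 0.556). The other core protein, UQCRC1, was at 215, 254 and 223 CPM in control and at 266, 257 and 247 CPM after OGD/R. Control replicate 2 lay above OGD/R replicate 3, and UQCRC1 was higher by 0.15 (adjusted p = 0.0162). It lost the call when any 1 of control replicates 1 and 3 and OGD/R replicates 1 and 2 was left out, with adjusted p up to 0.14.

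UQCR11, the smallest subunit of the complex and the gene printed above with NRF1 and ETS matches, was at 11.4, 11.2 and 9.63 CPM in control and at 12.7, 15.5 and 13.1 CPM after OGD/R. The groups were separate, the rise was 0.36 ± 0.11 (adjusted p = 0.0193), and the corrected values of 0.24 and 0.23 did not pass. UQCR11 also did not pass without control replicate 3 (0.29, adjusted p = 0.133) or without OGD/R replicate 2 (0.26, adjusted p = 0.179). Cytochrome c1, encoded by CYC1, rose by 0.13 (adjusted p = 0.0271), the smallest change called among the 39. It did not pass with total-count scaling (0.10, adjusted p = 0.0977), with the median basic length (0.083, adjusted p = 0.125), without control replicate 1 (0.11, adjusted p = 0.121) or without OGD/R replicate 2 (0.088, adjusted p = 0.28). UQCR10 did not pass (0.23, adjusted p = 0.0852), except without control replicate 2 (0.35, adjusted p = 0.0116).

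CYCS (ENSG00000172115) encodes cytochrome c, the soluble carrier between complexes III and IV that also triggers apoptosis once released from mitochondria. It was at 178, 188 and 174 CPM in control and at 195, 214 and 210 CPM after OGD/R. The groups did not overlap, and the rise was 0.19 ± 0.04 (180 ± 7.37 against 206 ± 10.2 CPM, adjusted p = 0.000933). The corrected value was 0.17 with the longest transcript (adjusted p = 0.000684) and 0.04 with the median basic length (adjusted p = 0.465). CYCS has 42 named pseudogenes in the annotation, of which 1 has a row in the table.

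In complex IV, 8 of 10 subunits rose, with a median log2 fold change of 0.27 over the 10. All 10 lie in the shortest length group, where 33.4% of genes were called higher before correction. After the corrections by longest and median basic length 3 and 2 of the 10 rose. Over all genes 10.2% were called higher before correction, and 10.3% and 10.2% after it. COX6B1 (ENSG00000126267), which links the monomers of the oxidase on the intermembrane side, was at 76.2, 80.3 and 77.4 CPM in control and at 93.1, 107.6 and 110.8 CPM after OGD/R. The control values lay close together and well below all OGD/R values. The rise of 0.41 ± 0.05 was the largest of the 39 (adjusted p = 7.87e-08), and the corrected values were 0.22 and 0.24 (adjusted p = 0.000268 and 7.68e-05).

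COX7A2 (ENSG00000112695), the widely expressed form of subunit VIIa, was at 67.2, 70.8 and 67.1 CPM in control and at 80.5, 84.8 and 87.6 CPM after OGD/R. The groups were well separated, and the rise was 0.30 ± 0.05 (adjusted p = 2.51e-05). After correction it was 0.08 with either length and did not pass (adjusted p = 0.227 and 0.24). COX7C (ENSG00000127184), another small membrane subunit, was at 95.6, 113 and 106 CPM in control and at 122, 136 and 145 CPM after OGD/R. Its groups were separate, the rise was 0.36 ± 0.06 (adjusted p = 5.85e-05), and the corrected values of 0.19 and 0.15 passed.

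COX6A1 (ENSG00000111775), the widely expressed form of subunit VIa, had the largest p of the complex. It was at 14.2, 15.6 and 14.7 CPM in control and at 14.9, 16.2 and 16.1 CPM after OGD/R, with overlapping groups (0.08 ± 0.10, adjusted p = 0.625), and its corrected values were −0.16 and −0.08. COX5B, a zinc-binding subunit, was at 68.6, 80.9 and 67.8 CPM in control and at 74.8, 95.8 and 90.2 CPM after OGD/R. OGD/R replicate 1 lay below control replicate 2, and the difference did not pass (0.26 ± 0.09, adjusted p = 0.0742). It passed without OGD/R replicate 1 (0.36, adjusted p = 2.4e-05), without control replicate 2 (0.35, adjusted p = 0.000536), and with total-count scaling, limma-voom or the replicate block (adjusted p = 0.0349, 0.00953 and 6.05e-05). COX4I1, a regulatory subunit that binds ATP, rose by 0.14 (adjusted p = 0.0153). It did not pass with total-count scaling (adjusted p = 0.0584), with the median basic length (0.015, adjusted p = 0.833) or without any 1 of control replicates 1 and 3 and OGD/R replicate 2 (adjusted p from 0.0547 to 0.133). COX7B rose by 0.35 (adjusted p = 0.00508) and did not pass with DESeq2 (adjusted p = 0.0606) or after the corrections (0.25 and 0.14, adjusted p = 0.0535 and 0.161).

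In complex V, 12 of 15 subunits rose, with a median log2 fold change of 0.26 over the 15. After the corrections by longest and median basic length 7 and 8 rose. For all genes the share called higher was 10.2% before correction, and 10.3% and 10.2% after it. ATP5F1B (ENSG00000110955), the catalytic beta subunit of the F1 head, was at 849.9, 929.5 and 881 CPM in control and at 1033, 1058 and 1079.6 CPM after OGD/R. All OGD/R values lay above the controls, and the rise was 0.25 ± 0.04 (adjusted p = 3.48e-06). With 1839 nucleotides of median basic length it lies outside the shortest length group, and its corrected values of 0.18 and 0.22 passed (adjusted p = 1.49e-05 and 1.8e-07). Its control level of 482 CPM per kilobase was the highest of the 39.

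ATP5F1A, the alpha subunit that alternates with beta in the head, was at 513, 551 and 507 CPM in control and at 594, 607 and 609.6 CPM after OGD/R. The groups were separate, the rise was 0.21 ± 0.04 (adjusted p = 0.000132), and the value was 0.25 after correction by the longest transcript and 0.17 after correction by the median basic length. ATP5F1C, the gamma subunit that turns inside the head and whose promoter is printed above, was at 141, 155 and 136 CPM in control and at 163, 177 and 185 CPM after OGD/R. Its groups did not overlap, and it rose by 0.28 ± 0.05 (adjusted p = 1.86e-05). Its corrected values were 0.10 (adjusted p = 0.0623) and 0.15 (adjusted p = 0.00379).

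ATP5PD (ENSG00000167863), subunit d of the peripheral stalk that holds the head still, was at 39.4, 42.6 and 43.6 CPM in control and at 54.7, 54.4 and 55.6 CPM after OGD/R. The OGD/R values were almost the same as one another and well above all controls, and the rise was 0.39 ± 0.06 (adjusted p = 4.05e-06). Both corrected values, 0.30 and 0.19, passed. The other stalk subunits rose as well, ATP5PB by 0.26 (adjusted p = 9.56e-06), ATP5PF by 0.27 (adjusted p = 0.00423) and ATP5PO by 0.30 (adjusted p = 0.0168). The call of ATP5PB held after both corrections (0.21 and 0.20). ATP5PF (0.14 and 0.075, adjusted p = 0.144 and 0.486) and ATP5PO (0.23 and 0.18, adjusted p = 0.0598 and 0.151) did not pass in either. ATP5PO also did not pass without control replicate 1, control replicate 3 or OGD/R replicate 2 (adjusted p from 0.0818 to 0.167).

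Subunit c forms the rotor ring in the membrane, and 3 genes, ATP5MC1, ATP5MC2 and ATP5MC3, encode precursors that are cut to the same mature protein. ATP5MC3 (ENSG00000154518) was at 99.5, 117 and 110.5 CPM in control and at 139, 144.5 and 138 CPM after OGD/R. The groups were far apart, and the rise was 0.37 ± 0.05 (adjusted p = 1.29e-07), with corrected values of 0.38 and 0.23 that passed (adjusted p = 4.92e-06 and 3.19e-05). ATP5MC2 (ENSG00000135390) was at 104, 117 and 103 CPM in control and at 113, 113 and 107 CPM after OGD/R. Its groups overlapped, with the highest value in a control library, and the log2 fold change was 0.04 ± 0.05 (adjusted p = 0.646). ATP5MC1 (ENSG00000159199) was at 34.4, 38.2 and 38.6 CPM in control and at 39.6, 45.1 and 47.8 CPM after OGD/R. Its groups were separate by a small margin (0.25 ± 0.07, adjusted p = 0.00727), and it did not pass without control replicate 1 (0.20, adjusted p = 0.0613) or without OGD/R replicate 3 (0.19, adjusted p = 0.0968), nor with the median basic length (0.08, adjusted p = 0.454).

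The ratio of ATP5MC3 to ATP5MC2 counts within a library was 0.955, 1.00 and 1.07 in control and 1.23, 1.28 and 1.29 after OGD/R. The groups did not overlap, and the mean of log2 was higher by 0.33 after OGD/R. An exact two-sided permutation test gave p = 0.1, the smallest that 3 libraries against 3 allow, and 0.3 after Benjamini-Hochberg adjustment over the 3 ratios of these genes. The ratio of ATP5MC1 to ATP5MC2 was higher by 0.21 (exact permutation p = 0.2) and that of ATP5MC3 to ATP5MC1 by 0.12 (exact permutation p = 0.3).

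**Figure D5:**
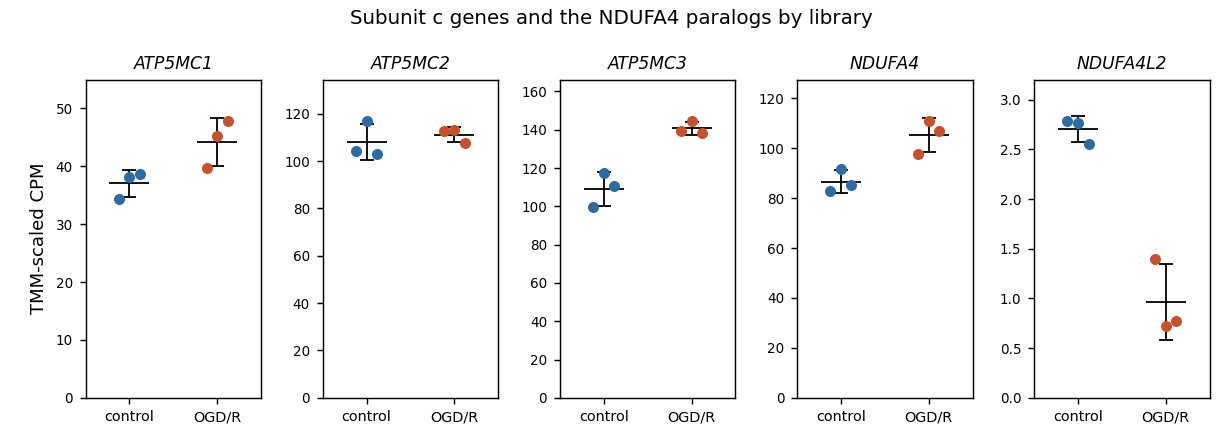
TMM-scaled CPM of the 3 subunit c genes and of NDUFA4 and NDUFA4L2 in each library, with the mean and SD of each group (n = 3) and a separate axis from 0 for each gene. ATP5MC3 and NDUFA4 lie higher after OGD/R, ATP5MC2 overlaps, and NDUFA4L2 lies lower, from 2.70 to 0.965 CPM.

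ATP5ME (ENSG00000169020), the small membrane subunit e, had the largest p of complex V and the fewest counts of the 39. It was at 2.08, 1.79 and 1.82 CPM in control and at 1.55, 1.54 and 1.97 CPM after OGD/R, from 47 to 68 counts per library. The groups overlapped (−0.17 ± 0.27, adjusted p = 0.732), and other genes, mainly MYL5, overlap 61.6% of the bases in its exons. Its control level was 5.20 CPM per kilobase, against 482 for ATP5F1B of the same enzyme. ATP5MF, another small membrane subunit, rose by 0.36 (adjusted p = 0.000978), and its corrected values of 0.19 and 0.12 did not pass.

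Many of these genes overlap others in the annotation or have pseudogenes, and reads shared with them were not measured. In 21 of the 39, some exon bases are shared with another gene, and 16 of these 21 rose, with a median log2 fold change of 0.27. Of the 18 without shared bases 14 rose, with a median of 0.24. Of the 31 with at least 1 named pseudogene 23 rose, and of the 8 without one 7 rose. The sources used here do not say whether the counting used the strand or how it placed reads that match several genes.

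The mitochondrially encoded partners of complexes III to V did not move as 1 group. MT-CO2 and MT-CO3, core subunits of cytochrome c oxidase, rose by 0.35 and 0.30 (edgeR adjusted p = 4.9e-09 and 1.23e-06). MT-ATP6 and MT-ATP8, membrane subunits of ATP synthase, were higher by 0.23 and 0.25 (adjusted p = 1.55e-05 and 0.0345). MT-CO1, the catalytic subunit of the oxidase, was at 12371, 12257 and 11881 CPM in control and at 12273, 13440.3 and 13077 CPM after OGD/R (0.09, adjusted p = 0.135). It was called higher with limma-voom (0.09, adjusted p = 0.0231). MT-CYB, the only such subunit of complex III, was at 2899, 2796 and 2884 CPM in control and at 2626, 2793 and 2702 CPM after OGD/R (−0.08, adjusted p = 0.164). Its OGD/R values all lay below the controls. MT-CYB was called lower with total-count scaling (−0.11, adjusted p = 0.0288), limma-voom (−0.08, adjusted p = 0.0497) and the median basic length (−0.19, adjusted p = 3.85e-06). The median over the 6 was 0.24 and became −0.03 after correction by longest transcript, where MT-CO2 and MT-CO3 kept the call (0.13 and 0.09, adjusted p = 0.00162 and 0.0333), MT-ATP6 and MT-ATP8 did not pass (−0.01 and −0.11), and MT-CYB was called lower (−0.25, adjusted p = 2.26e-08). The length trend was fitted over 10859 expressed protein-coding genes together, and whether it holds for mitochondrially encoded genes was not tested. MT-ATP6 and MT-ATP8 share bases but were each corrected by their own annotated length. Before correction, MT-ATP8 did not pass without OGD/R replicate 3 (0.17, adjusted p = 0.267) or without any 1 of the controls (adjusted p from 0.0599 to 0.0868).

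Assembly factors help to build the complexes. The lists of them used here are broad, and that for complex IV includes HIGD1A, which binds the oxidase. Of 45 listed genes measured, the inhibitor of complex V included, 6 (13.3%) rose and 0 fell, near the share among all genes (10.2% higher). No test was made between these lists and the subunits. Of 4 factors for complex II, 0 were called in either direction by edgeR, and their median was 0.14. Of 9 for complex III, 1 rose and 0 fell, with a median of 0.02. After correction by longest transcript 1 rose and 1 fell, the latter TTC19 (−0.12, adjusted p = 0.0275). UQCC2, needed for cytochrome b, rose from 9.03 ± 0.981 to 12.1 ± 0.382 CPM (0.42 ± 0.12, adjusted p = 0.00717), and did not pass without control replicate 1 (0.34, adjusted p = 0.0602). Of 26 for complex IV, 4 rose and 0 fell, with a median of 0.04. After correction by longest transcript 3 rose and 1 fell, the latter COX10 (−0.28, adjusted p = 0.0456). COX10 was not called before correction (−0.26, adjusted p = 0.0754) and was called lower with the median basic length (−0.31, adjusted p = 0.0275). HIGD1A, a hypoxia-induced protein that binds the oxidase, rose from 56.7 ± 3.51 to 72.2 ± 3.78 CPM (0.35 ± 0.06, adjusted p = 8.62e-06), and COX11, a copper chaperone, from 53.4 ± 2.17 to 63.4 ± 2.06 CPM (0.25 ± 0.06, adjusted p = 0.00131). COX11 did not pass with the median basic length (0.13, adjusted p = 0.0872). Of 6 measured genes among the complex V assembly factors and its inhibitor, 1 rose and 0 fell, with a median of −0.00. That 1 was TMEM242 (0.31 ± 0.11, adjusted p = 0.0375), which did not pass when any 1 library other than control replicate 3 was left out (adjusted p from 0.0614 to 0.133). ATP5IF1, the natural inhibitor of ATP hydrolysis, was not called (0.18, adjusted p = 0.21).

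Of 13 further subunits and tissue isoforms of complexes III to V, 7 have a value, and 3 rose and 1 fell, with a median of 0.17. Among all genes 10.2% were called higher and 9.48% lower. After correction by longest transcript 1 rose and 1 fell, with a median of 0.04. NDUFA4, now counted as a subunit of complex IV, was at 83.0, 91.6 and 85.1 CPM in control and at 97.6, 110.8 and 107.1 CPM after OGD/R. Its groups were separate, and it rose by 0.28 ± 0.05 (adjusted p = 5.93e-05), with a corrected value of 0.16 (adjusted p = 0.00797). Its paralog NDUFA4L2, a known target of hypoxia-inducible factor, went the other way, from 2.79, 2.77 and 2.55 CPM in control to 1.40, 0.719 and 0.775 CPM after OGD/R. All OGD/R values lay below the controls, and it fell by 1.48 ± 0.29 on the log2 scale (adjusted p = 0.000102), with a corrected value of −1.55.

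Of 13 measured regulators of mitochondrial biogenesis, 1 rose and 2 fell, with a median of 0.00, while 10.2% of all genes were called higher and 9.48% lower. After correction by longest transcript 2 rose and 2 fell. No test was made of these counts. SSBP1, which coats single-stranded mitochondrial DNA, rose from 82.4 ± 5.77 to 107 ± 4.82 CPM (0.37 ± 0.05, adjusted p = 2.81e-07). PPARGC1B, a coactivator of respiratory genes, fell from 23.1 ± 2.30 to 16.2 ± 0.938 CPM (−0.51 ± 0.09, adjusted p = 3.95e-05), and PPRC1, a related coactivator, fell by 0.23 (adjusted p = 0.000959). With the longest and the median basic length, PPARGC1B was at −0.36 and −0.43 and PPRC1 at −0.15 and −0.14, and all 4 values passed. POLG was not called (0.13, adjusted p = 0.0583) but was called higher in both corrected fits (0.19 and 0.22, adjusted p = 0.000614 and 8.23e-05). NRF1, GABPA and TFAM, named here after their values were seen because the promoter search concerns the first pair, were not called (0.08, 0.03 and 0.08, adjusted p = 0.6, 0.828 and 0.234). PPARGC1A has no value among the 17104 genes.

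For comparison, of 37 nuclear-encoded subunits of complex I, 18 rose and 0 fell, with a median of 0.21 (10.2% higher and 9.48% lower among all genes). After correction by longest transcript 8 of these complex I subunits rose, with a median of 0.10 (10.3% higher among all genes). NDUFS5 had the smallest p there (66.1 ± 4.24 against 92.1 ± 2.96 CPM, 0.48 ± 0.05, adjusted p = 1.6e-09), followed by NDUFS3 (71.3 ± 8.10 against 90.8 ± 3.47 CPM, 0.35 ± 0.06, adjusted p = 2.47e-05). The difference between complex I and complexes II to V was not tested.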

How the data were processed

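RNA-seq of total RNA from 6 HBMEC libraries was used. The authors deposited 1 whole-number count of reads for each human Ensembl gene and library. Reads went through Trimmomatic, HISAT2, featureCounts, SAMtools and edgeR, in an order not stated, per the submitters' processing notes. These also name GRCm38, a mouse build, although the gene IDs are human, so no coordinates were taken from it. Settings, strand use and the treatment of shared reads: not given in the sources used here. Every one of the 17104 genes reached 10 counts in 3 or more libraries. Nothing says that libraries came from separate cultures, so p-values reflect the spread of these samples alone, and that spread may be technical.

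Counts were TMM-scaled and compared by edgeR 4.0.16, run under R 4.3.3 (quasi-likelihood, robust, two-sided, Benjamini-Hochberg over all genes, threshold 0.05). filterByExpr removed 0 genes, and the common biological coefficient of variation was 6.26%. CPM values are TMM-scaled, given as mean ± SD, and each fold change is log2 OGD/R over control ± SE. The first corrected fit used each gene's longest GENCODE 29 transcript and mgcv 1.9.3, with lengths known for 96.6% of genes. The median basic length as the alternative was chosen after seeing the data. Other alternatives were DESeq2 1.42.0 and limma-voom (limma 3.58.1) as tools, total-count, upper-quartile and RLE scaling, other filters, no mitochondrially encoded genes, the replicate block and leaving out each library. The fits were tested on simulated data. Chi-square per degree of freedom was 4.07 to 7.43 between libraries of a group, so all 6 were kept as separate samples.

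The members and lists were chosen with earlier results of these data known. Values in every library are given for complex II, CYCS and the ATP5MC genes, and in complexes III, IV and V for the 3 called members with the smallest p and the 1 with the largest p. From other lists the 2 called genes with the smallest p are named. Genes beyond this rule, the separate values of ATP5F1A among them, were chosen after their values were seen.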

Additional observations from a re-analysis of the deposited data

How the results depend on the processing

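Over all genes the number called lower moved most, to 1079 without control replicate 3, and leaving out each library in turn gave 1293 to 1840 higher and 1079 to 1527 lower. Total-count scaling gave 1383 higher and 2098 lower. Of the 39 subunits, 27 to 31 rose with other scalings, tools and filters or with the replicate block, 22 to 33 when 1 library was left out (median 0.23 to 0.29), and 0 fell in any of these. Length and GC correction left 18 (median 0.14) with the longest transcript, 21 (median 0.14) when joined with the replicate block, and 15 (median 0.12) with the median basic length. Same-numbered libraries did not deviate together (r = 0.01, 0.02 and 0.03), so the numbers were not taken as pairs. The replicate block alone gave 1827 genes higher and 1702 lower, and 31 subunits higher.

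Signs turned in some values, most of them not called. With the longest transcript, alone and joined with the block, values were −0.10 and −0.10 for SDHD, −0.042 and −0.041 for ATP5MC2, −0.022 and −0.022 for UQCRC2, −0.16 and −0.16 for COX6A1, −0.045 and −0.045 for MT-CO1, −0.0092 and −0.0087 for MT-ATP6, and −0.11 and −0.11 for MT-ATP8. With the median basic length they were −0.043 for SDHC, −0.068 for SDHD, −0.079 for ATP5MC2, −0.042 for UQCRC2, −0.022 for COX5A, −0.083 for COX6A1 and −0.11 for MT-ATP8. When 1 library was left out, SDHA ranged from −0.060 to 0.033 and GABPA from −0.0054 to 0.063, and GABPA was −0.00016 with total-count scaling. Among the named genes the calls whose sign turned were those of SDHC, COX5A, MT-ATP6 and MT-ATP8, and none of the turned values passed.

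Of 1595 combinations of a result and another setting, 1401 kept their direction and side of the threshold, or moved within the spread between libraries or within 1.5 times. The main counts and the subunit median, given above, are not among the 1595. The setting without a filter repeated the main fit, since 0 genes were removed, so its agreement was fixed in advance. A list with 0 genes called in both fits also counts as kept. With 3 libraries per group, a subunit that was not called is not shown to be unchanged.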
